A study of Mus musculus with 12 samples.

Results

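The 38 genes described here encode the machinery of apoptosis, necroptosis and pyroptosis, the 3 main forms of programmed cell death. They were chosen by symbol from what their products are known to do, and all 38 were found by Entrez ID among the 27179 gene IDs of the count tables. Of these, 29 were classed as pro-death and 9 as anti-death. RNA came from NIH3T3 cells, immortalized fibroblasts of mouse embryos, in a RelA-/- background that carries a RelA-DsRed fusion (RelA, or p65, is a subunit of NF-κB). All groups share this genotype. The labels name 4 groups of 3 samples kept for 2 h in microfluidic devices, with 0.2 ng/mL IL-1b, 100 ng/mL LPS, 0.2 ng/mL PAM or media. The 9 tables labelled LPS, PAM and media were identical copies of the table of IL-1 replicate 3, so only the 3 IL-1 libraries were used. No gene could be set against media, and the levels below do not show whether IL-1 changed any of them. Nothing in the labels ties the libraries to separate cultures, so their spread may be technical. Rela had 37.1, 30.5 and 38.9 CPM (counts per 1e6 counts of a library), and counts per gene do not separate the fusion from the deleted allele.

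In intrinsic apoptosis, BH3-only proteins trigger the pore formers BAX and BAK1, which release cytochrome c from mitochondria, and anti-death BCL2 proteins hold this step in check. Cytochrome c and APAF1 then assemble the apoptosome, which activates caspase-9 and through it the executioner caspases. Death receptors instead recruit FADD and caspase-8. Where caspase-8 is blocked, RIPK1 and RIPK3 can activate MLKL, which ruptures the plasma membrane in necroptosis. In pyroptosis, an inflammatory caspase cleaves gasdermin D, whose fragment forms pores. NF-κB is known to switch on several of the anti-death genes, among them Birc3, Cflar and Bcl2l1, and cells without RelA are known to be sensitive to death signals from TNF.

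Necroptosis lacked its middle step. Ripk3 had 3 counts in all, while Mlkl ranked 6 of the 38 members by level per kb. Pyroptosis through NLRP3 lacked 3 of its 4 steps at the detection limit. Every step of both apoptosis pathways had a detected gene, with Casp6 alone standing for the executioners. Promoter windows of 5 members, from 250 bases before to 50 bases after an annotated start, are printed because these members stand at the ends of that range. Ripk3 and Mlkl are the lowest and highest steps of necroptosis, Casp1 and Casp12 lie on either side of Casp4 on chromosome 9 with very different levels, and Apaf1 is the lowest step of intrinsic apoptosis. Sequences are from RefSeq (GRCm38.p6), 5′ to 3′ on the strand of the gene, and capitals mark CpG dinucleotides.
Ripk3, chr14:55788808-55789107, minus strand: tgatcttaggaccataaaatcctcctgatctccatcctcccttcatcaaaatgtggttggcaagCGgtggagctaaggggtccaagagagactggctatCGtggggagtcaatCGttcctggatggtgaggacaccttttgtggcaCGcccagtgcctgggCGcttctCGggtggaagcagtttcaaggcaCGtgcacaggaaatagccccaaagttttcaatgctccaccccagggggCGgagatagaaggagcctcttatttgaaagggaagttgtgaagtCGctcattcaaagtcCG
Mlkl, chr8:111338156-111338455, minus strand: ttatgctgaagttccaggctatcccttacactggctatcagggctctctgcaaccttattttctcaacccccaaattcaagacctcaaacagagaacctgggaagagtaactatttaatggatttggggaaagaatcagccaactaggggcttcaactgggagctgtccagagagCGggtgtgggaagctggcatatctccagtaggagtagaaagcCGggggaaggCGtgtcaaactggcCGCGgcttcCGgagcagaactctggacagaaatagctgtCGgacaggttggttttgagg
Casp1, chr9:5298267-5298566, plus strand: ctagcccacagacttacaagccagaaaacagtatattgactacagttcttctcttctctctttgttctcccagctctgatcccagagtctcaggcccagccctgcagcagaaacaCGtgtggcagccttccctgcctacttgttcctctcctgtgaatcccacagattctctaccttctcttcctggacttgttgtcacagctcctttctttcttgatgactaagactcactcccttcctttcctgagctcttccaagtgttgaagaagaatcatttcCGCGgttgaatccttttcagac
Casp12, chr9:5345226-5345525, plus strand: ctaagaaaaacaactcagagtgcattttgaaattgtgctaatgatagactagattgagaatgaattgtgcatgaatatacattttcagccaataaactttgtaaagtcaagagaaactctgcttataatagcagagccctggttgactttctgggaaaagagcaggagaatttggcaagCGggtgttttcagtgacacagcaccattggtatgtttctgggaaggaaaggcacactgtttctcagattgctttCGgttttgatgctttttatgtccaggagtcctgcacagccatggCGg
Apaf1, chr10:91082694-91082993, minus strand: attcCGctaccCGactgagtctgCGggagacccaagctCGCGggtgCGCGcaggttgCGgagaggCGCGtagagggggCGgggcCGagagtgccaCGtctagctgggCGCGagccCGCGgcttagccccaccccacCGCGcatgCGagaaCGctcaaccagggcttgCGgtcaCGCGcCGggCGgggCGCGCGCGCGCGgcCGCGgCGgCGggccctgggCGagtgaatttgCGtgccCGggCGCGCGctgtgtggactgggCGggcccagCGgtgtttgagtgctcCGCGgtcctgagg

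RefSeq windows were used for 34 of the 38 members. None was found for Tradd, Gsdmd and Bik. Windows on chromosome 18, where Pmaip1 lies, were left out for the members, whereas the background of all genes was not filtered by chromosome. For genes with several starts, the window with the most CpG was taken. The Apaf1 window held 46 CpG, the most of any member, and those of Casp1, Casp12 and Pycard held 3 each, the fewest. Of the 28 matched members detected by the rule given below, 20 had at least 15 CpG, and the exceptions were Casp4, Casp8, Casp12, Bcl2l2, Bak1, Birc3, Mlkl and Cflar. Of the 6 that were not detected, 1 did, namely Hrk with 29. Among protein-coding genes in the tables, 79.1% of those detected and 22.0% of those not detected had at least 15 CpG, so the members' shares of 71.4% and 16.7% lay near the background. Casp12 with 3 CpG was above Apaf1 with 46 CpG in every library, but CpG content was not compared with level over all members.

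Each library held between 17254518 and 18578859 counts. Levels are compared between genes as CPM per kb of merged exons, since longer transcripts yield more reads. Detection meant a level of at least 1 CPM in all 3 libraries. Where a library had no count of a gene, up to 3 counts remain possible, which is 0.161 to 0.174 CPM and covers counting error only. All 7 fibroblast markers were detected, with a summed level of 8960 to 9208 CPM. Of 7 macrophage markers 4 were detected (summed level 18.2 to 27.6 CPM). Ptprc, which was not detected, had 3, 0 and 6 counts, and the other macrophage markers are not given singly. Of 5 endothelial markers 1 was detected (13.6 to 15.2 CPM) and of 6 epithelial markers 0 (0.580 to 0.663 CPM). In bulk RNA, a low level in all cells and a higher level in few cells cannot be told apart.

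Of the 38 members, 31 were detected, against 51.1% of protein-coding genes and 41.3% of all gene IDs. All 9 anti-death and 22 of 29 pro-death members were among them. The other 7 were Ripk3, Casp1, Nlrp3, Pycard, Bmf, Bik and Hrk. In counts a gap lay between both sets. Members below the limit had at most 7 in any library (Bik, 7, 4 and 4 counts). Members above it had at least 21 (Bcl2, 43, 21 and 36 counts). Per kb there was no such gap, with 0.255, 0.139 and 0.135 for Bik and 0.272, 0.127 and 0.212 CPM per kb for Bcl2. The median over all 29 pro-death members was 2.55 CPM per kb and over the 9 anti-death members 3.64. Over detected members alone it was 8.08 for the pro-death and 3.64 for the anti-death side, beside 6.75 for all detected genes, so the order of the medians turned when the members below the limit were left out.

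**Figure D1:**
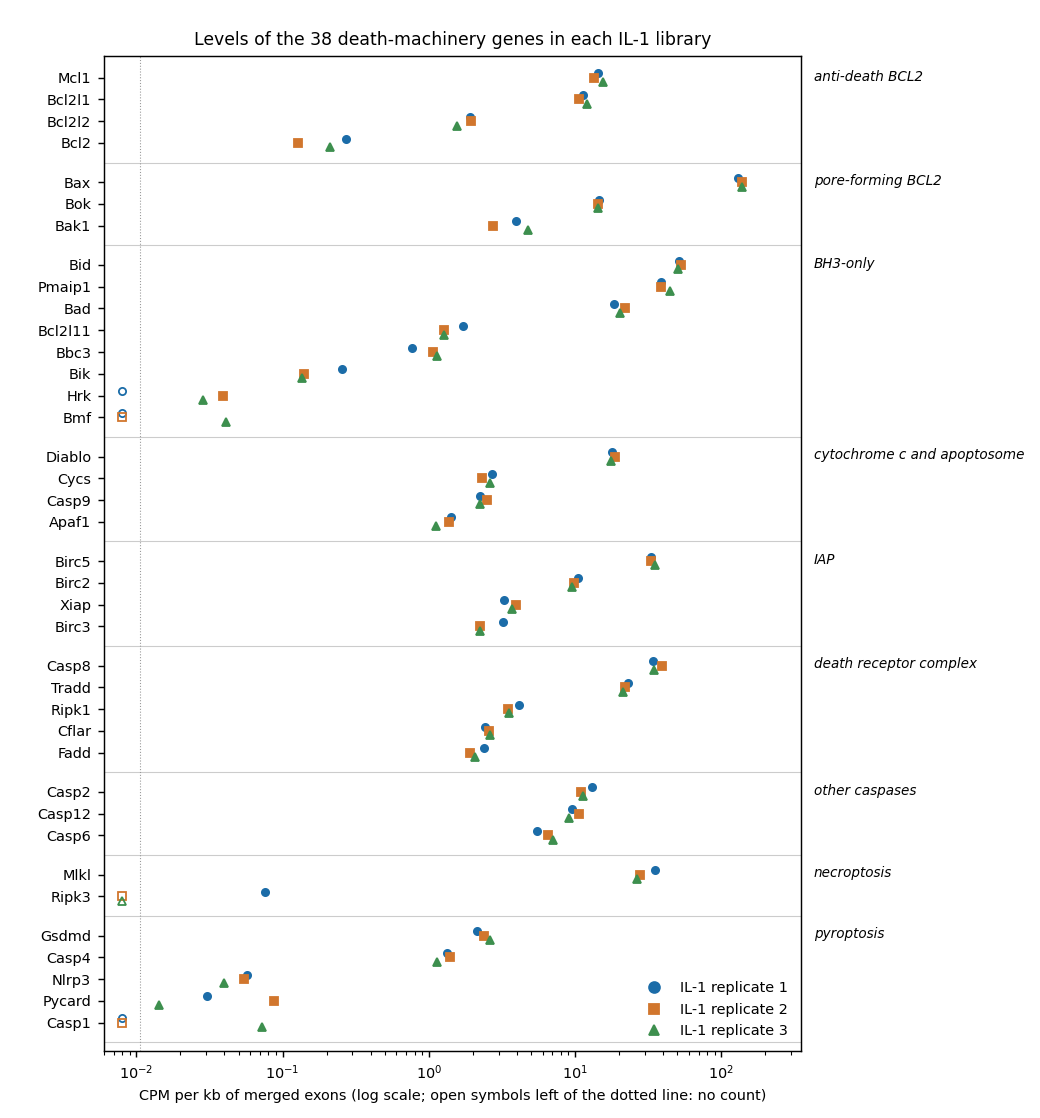
Level of each of the 38 members in CPM per kb of merged exons on a log axis, grouped by role, with 1 symbol per IL-1 library; open symbols at the left edge mark libraries with no count. Bax lies highest at 131 to 139.6, and the 7 members not detected lie between no count and 0.255.

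Among the anti-death BCL2 proteins, which bind and hold back the pore formers, Mcl1 and Bcl2l1 made up nearly the whole level and Bcl2 itself was close to the limit. Mcl1 (Entrez 17210, chromosome 3, 95656944 to 95663179, GRCm38), a short-lived guardian of the outer mitochondrial membrane, had 14.3, 13.5 and 15.5 CPM per kb in replicates 1 to 3. Bcl2l1 (chromosome 2, 152758732 to 152833803), which encodes BCL-XL, had 11.3, 10.7 and 12.1 CPM per kb. Both were lowest in replicate 2 and highest in replicate 3, and Mcl1 was above Bcl2l1 in each library, by 1.27-fold ± 0.00789 (SD, n = 3). This order turned with the length used, to 0.711 by the longest transcript of each gene and 0.946 without length correction. Bcl2l2, which encodes BCL-W, was at 1.80 ± 0.215 CPM per kb. Bcl2 (chromosome 1, 106538176 to 106714290), the founding member of the family, had 0.272, 0.127 and 0.212 CPM per kb. It took 0.727% ± 0.248 of the summed level of the 4 genes, against 51.9% ± 0.729 for Mcl1 and 40.9% ± 0.348 for Bcl2l1. Among all detected genes with a known length, Bcl2 lay at percentile 0.706 per kb and Mcl1 at percentile 67.8.

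The pore formers were dominated by Bax. Bax (Entrez 12028, chromosome 7, 45461695 to 45466903) had 131, 139.6 and 139 CPM per kb, the highest level of all 38 members and percentile 96.5 of the detected genes. Its partner Bak1 (chromosome 17, 27019812 to 27028627), which can open the same membrane, had 3.95, 2.73 and 4.79 CPM per kb. Bak1 was lowest in replicate 2, where its count was 119 against 164 and 214, and the ratio of Bax to Bak1 accordingly ran from 29.0 in replicate 3 to 51.1 in replicate 2 (37.8 ± 11.7, or 24.7 ± 7.68 without length correction). Bok, a relative of both, had 14.6, 14.3 and 14.4 CPM per kb. Its libraries differed by less than counting error alone gives, with an SD 0.200 times the counting SD. Bax made up 88.2% ± 0.803 of the summed level of the 3 pore formers, Bok 9.34% ± 0.354 and Bak1 2.47% ± 0.660.

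BH3-only proteins, the sensors that start intrinsic apoptosis, split into 3 abundant members, 2 low ones and 3 that were not detected. Bid (chromosome 6, 120893119 to 120917062), which caspase-8 cleaves to link death receptors to mitochondria, had 51.6, 52.8 and 50.2 CPM per kb. Pmaip1 (chromosome 18, 66458604 to 66465558), which encodes NOXA, a p53 target that binds MCL1, had 38.5, 38.9 and 44.6 CPM per kb. Bad, whose product is held inactive by survival kinases, had 18.4, 22.1 and 20.4 CPM per kb. These 3 took 44.8% ± 1.92, 35.3% ± 2.26 and 17.6% ± 1.26 of the summed BH3-only level. Bcl2l11, which encodes the broad activator BIM, had 1.73, 1.26 and 1.27 CPM per kb and was highest in replicate 1. Bbc3, which encodes the p53 target PUMA, had 28, 41 and 45 counts and was lowest in replicate 1. Bik had 7, 4 and 4 counts, Hrk 0, 4 and 3, and Bmf 0, 0 and 4, too few to order them.

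Set against each other, the pore formers exceeded the anti-death BCL2 proteins in summed level, and this rested on Bax. The 4 anti-death genes summed to 27.8 ± 1.56 CPM per kb, the 3 pore formers to 154.7 ± 4.44 and the 8 BH3-only genes to 115 ± 3.41. The ratio of pore formers to anti-death genes was 5.38, 5.96 and 5.37 in replicates 1 to 3 (2.26 ± 0.133 without length correction), and that of BH3-only to anti-death genes was 4.003, 4.43 and 4.01. Both ratios were highest in replicate 2. Without Bax, the pore formers Bak1 and Bok together came to 0.656 ± 0.00919 times the anti-death genes (0.321 without length correction), so the order turned. Pmaip1 alone was 2.82-fold ± 0.104 above Mcl1, the guardian that its product binds. These are ratios of transcripts, and the levels of the proteins were not measured.

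**Figure D2:**
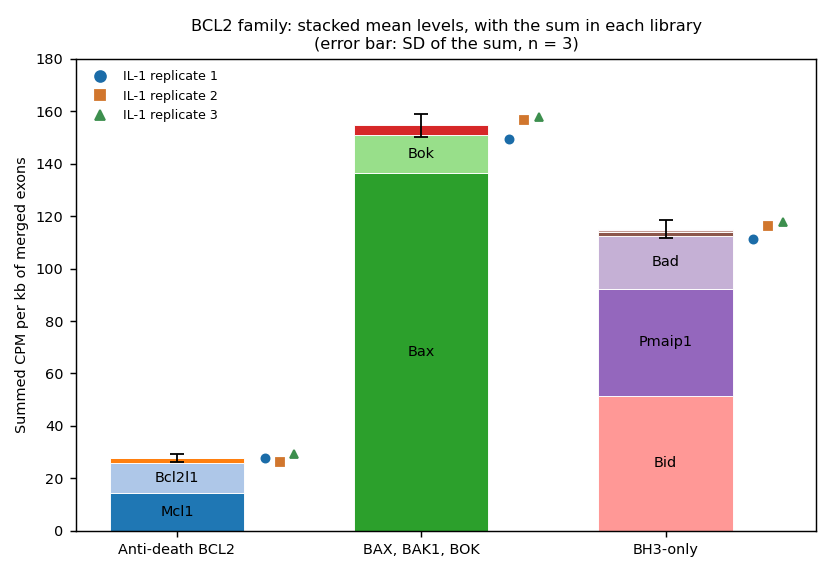
Summed CPM per kb of merged exons for anti-death BCL2 genes, pore formers and BH3-only genes, as stacked mean levels from the most abundant gene upward, with the SD of the sum (n = 3) and the sum in each library as symbols. The pore former bar reaches 154.7 and is mostly Bax, and the anti-death bar reaches 27.8.

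Downstream of mitochondria, the components of the apoptosome were all detected, with means of 1.31 to 2.55 CPM per kb for Apaf1, Casp9 and Cycs. Cycs (chromosome 6, 50562563 to 50566569), which encodes cytochrome c, had 2.71, 2.32 and 2.61 CPM per kb. Apaf1 (chromosome 10, 90989311 to 91082743), the scaffold that cytochrome c binds, had 1.42, 1.38 and 1.13 CPM per kb. Casp9, the initiator caspase of the complex, had 2.25, 2.49 and 2.24 CPM per kb and was 1.79-fold ± 0.199 above Apaf1, but 1.03-fold ± 0.114 without length correction. Apaf1 was the lowest step of this pathway in every library, at 0.936% ± 0.136 of the level of Bax and Bak1 together. By CPM without length correction the lowest step was Cycs, because the merged exons of Apaf1 are longer (9028 against 3404 bases). Cycs has processed pseudogenes that could take part of its reads, so its value is uncertain. Diablo, a mitochondrial protein that releases caspases from IAP proteins, was at 18.1 ± 0.487 CPM per kb, but 40.9% of its merged exons are shared with exons of other genes.

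The IAP genes (inhibitor of apoptosis proteins) were all detected. Birc5, which encodes survivin, a protein needed for chromosome segregation as well as for survival, was highest at 32.9, 33.2 and 35.0 CPM per kb. Birc2 and Birc3, ubiquitin ligases of the TNF receptor complex that lie side by side on chromosome 9 (7818226 to 7837131 and 7847468 to 7873205), were at 9.94 ± 0.4997 and 2.58 ± 0.572 CPM per kb. Birc3, the NF-κB target of this pair, had 280, 204 and 209 counts, or 16.2, 11.3 and 11.2 CPM. It was highest in replicate 1, and replicates 2 and 3 nearly coincided. Xiap, which blocks caspases directly, had 3.27, 3.96 and 3.70 CPM per kb, and Diablo was 4.99-fold ± 0.432 above it (3.25-fold without length correction). Birc5 took 67.6% ± 1.73 of the summed IAP level.

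Among the genes of the death receptor complex, Casp8 was far above its adaptor and its inhibitor. Casp8 (Entrez 12370, chromosome 1, 58795233 to 58847503), the initiator caspase of this pathway, had 34.1, 39.3 and 34.6 CPM per kb. Cflar, which encodes FLIP, the inactive relative that holds caspase-8 in check, lies next to it (58711311 to 58758884) and had 2.42, 2.59 and 2.60 CPM per kb. The ratio of Casp8 to Cflar was 14.2 ± 0.936 by merged exons, 8.23 ± 0.543 by the longest transcript and 3.24 ± 0.214 without length correction. Fadd, the adaptor that joins receptors to caspase-8, had 2.38, 1.90 and 2.08 CPM per kb and was the lowest step, at 1.78% ± 0.213 of the summed level of 3 death receptors. Tradd, the adaptor of TNF receptor 1, was at 22.2 ± 0.902 CPM per kb, 10.5-fold ± 0.977 above Fadd (5.04-fold without length correction). Ripk1, a kinase that can promote survival or death from the same complex, had 4.13, 3.50 and 3.55 CPM per kb. The receptors, which are not members, were Fas at 83.9 ± 4.69, Tnfrsf1a at 31.7 ± 4.11 and Tnfrsf10b at 3.21 ± 0.244 CPM per kb, and Fasl, the ligand of Fas, had no count.

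Of the remaining caspases, Casp2, an initiator linked to DNA damage and centrosome number, was at 11.8 ± 1.13 CPM per kb. Casp6, an executioner, had 5.53, 6.53 and 7.10 CPM per kb and was lowest in replicate 1. It alone stands for the executioner step here, and other executioner caspases are not reported here. All 6 steps of intrinsic apoptosis and all 4 of death receptor apoptosis thus had at least 1 detected gene.

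Necroptosis had its first and last step without the middle one. At its lowest step, necroptosis reached 0.0718% ± 0.124 of its highest. Ripk3 (Entrez 56532, chromosome 14, 55784995 to 55788857), the kinase that phosphorylates MLKL, had 3, 0 and 0 counts in replicates 1 to 3. All of its counts fell in replicate 1, and without that library none was left. Mlkl (Entrez 74568, chromosome 8, 111311255 to 111338479), the executor of necroptosis, had 1400, 1159 and 1127 counts, or 35.2, 27.8 and 26.3 CPM per kb. It was highest in replicate 1 and lay at percentile 81.6 of detected genes. Over the 3 libraries together, Mlkl was 1223-fold above Ripk3 per kb (95% exact counting interval 418 to 5932). Ripk1 was 153-fold above Ripk3 (52.3 to 743), or 557-fold by counts alone. Counting intervals here and below treat reads as independent. They cover neither copies made in pre-amplification nor the spread between libraries. As background, sublines of NIH3T3 are known that differ in whether they express RIPK3. Zbp1, a nucleic acid sensor that can engage RIPK3 without RIPK1, had 50, 50 and 53 counts (0.804 ± 0.0193 CPM per kb).

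Pyroptosis through NLRP3 had only its last step. Nlrp3 (chromosome 11, 59541569 to 59566955), the sensor, had 4, 4 and 3 counts. Pycard (chromosome 7, 127991373 to 127993867), which encodes the adaptor ASC, had 2, 6 and 1 counts. Casp1 (Entrez 12362, chromosome 9, 5298517 to 5307281), the inflammasome caspase, had 0, 0 and 2 counts. Over the 3 libraries, exact 95% counting intervals reached up to 0.365 CPM for Nlrp3, 0.317 for Pycard and 0.134 for Casp1, and the 3 intervals overlapped. These genes are known from macrophages, of whose 7 markers 4 were detected, at a low summed level, as given above. A link between cell type and these counts was not tested. Gsdmd (chromosome 15, 75862144 to 75867408), which encodes gasdermin D, had 2.12, 2.37 and 2.63 CPM per kb and was detected in each library. Of 4 further inflammasome sensors, Aim2, Nlrc4, Nlrp1a and Nlrp1b, none was detected, with at most 4 counts in 1 library.

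The caspase-11 route of pyroptosis, in which intracellular LPS activates the caspase without an inflammasome sensor, had both of its steps. Casp4 (chromosome 9, 5308849 to 5336791), the mouse gene of caspase-11, had 1.33, 1.39 and 1.13 CPM per kb, which was 54.7% ± 10.3 of the level of Gsdmd. By the longest transcript of each gene this was 80.5%. Casp12 (5345442 to 5373034), a relative at the endoplasmic reticulum, lies beside it and had 9.48, 10.7 and 9.15 CPM per kb, 7.64-fold ± 0.477 above Casp4. Along this stretch of chromosome 9, Casp1 was therefore lowest and Casp12 highest in each library, with Casp4 in between. Over all libraries Casp4 was 51.6-fold (95% exact counting interval 14.2 to 429) and Casp12 394-fold (109 to 3255) above Casp1 per kb. By the longest transcript these were 100.8-fold and 571-fold, and by counts alone 128-fold and 1010.5-fold.

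**Figure D3:**
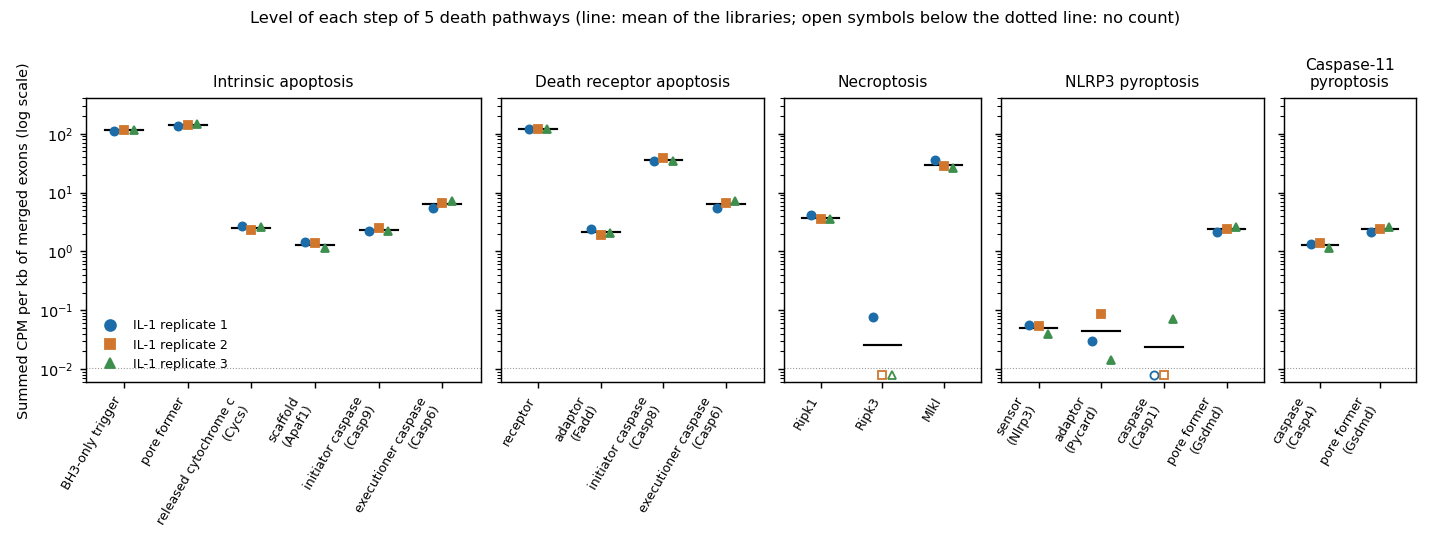
Summed CPM per kb of the genes of each step of 5 death pathways on a log axis, with 1 symbol per IL-1 library and a line at the mean; open symbols below the dotted line mark libraries with no count. Ripk3 in necroptosis and Nlrp3, Pycard and Casp1 in NLRP3 pyroptosis lie under 0.1, and the other steps shown lie above 1.

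Summed over all members, pro-death genes came to 419.7 ± 4.38 and anti-death genes to 80.2 ± 2.17 CPM per kb, a ratio of 5.19, 5.43 and 5.08 in replicates 1 to 3. Without length correction the mean ratio was 3.35. Of the pro-death sum, Bax took 32.5% ± 0.859, Bid 12.3% ± 0.246, Pmaip1 9.69% ± 0.823, Casp8 8.58% ± 0.6004 and Mlkl 7.10% ± 1.19. On the anti-death side Birc5 took 42.0% ± 0.850, Mcl1 18.0% ± 0.742 and Bcl2l1 14.2% ± 0.524. The number of pro-death members is larger by choice of the list, so the ratio describes this list and not a balance in the cells.

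The spread between libraries was like that of all detected genes. The median detected member had an SD 1.96 times the counting SD, beside 1.95 for all detected genes. An SD over 2 times the counting SD was found for 15 of the 31 detected members, against 48.5% of all detected genes. Of the 31, 12 were highest in replicate 1, against 45.7% of detected genes, 10 in replicate 2 and 9 in replicate 3. On the log2(CPM + 0.5) scale, replicate 1 differed from the mean of replicates 2 and 3 by a median of 0.00 for the members and 0.04 for all detected genes.

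Single members moved more. Mlkl had the largest SD relative to counting error, 5.60 times, with 81.1, 64.1 and 60.7 CPM. Replicate 1 stood 0.38 (log2) above the others for Mlkl, 0.51 for Birc3, 0.43 for Bcl2l11 and 0.55 for Bcl2. For Bcl2, however, the largest departure was that of replicate 2 (log2 ratio -0.71), with 43, 21 and 36 counts in replicates 1 to 3. A list of 12 interferon-stimulated genes, known from earlier results to be high in replicate 1, summed to 894, 611 and 555 CPM in replicates 1 to 3, and its part in these differences was not tested. The 10-base interferon response core GAAANNGAAA was found on either strand in the promoter windows of Ripk1 and Cflar and of no other matched member. This was 5.88% of the 34 beside 3.99% of protein-coding genes. Most genes thus lack this exact core, and its link to the level in replicate 1 was not tested. The κB core GGGNNNNNCC was found on either strand for 28 of the 34 matched members, in 1 copy for Birc3. This was 82.4% of them beside 60.8% of protein-coding genes, and 85.7% of detected members beside 73.0% of detected protein-coding genes. A core of this kind is common by its loose definition, and where a gene has several windows any of them counted. Bak1 moved otherwise, with 9.50, 6.58 and 11.5 CPM, and Bbc3 was lowest in replicate 1.

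**Figure D4:**
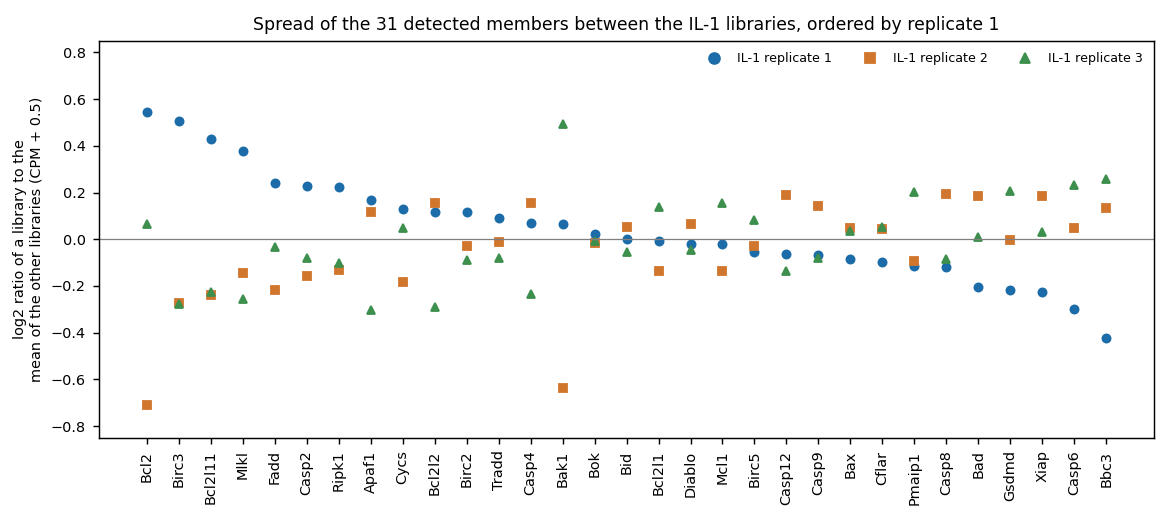
Log2 ratio of each IL-1 library to the mean of the remaining ones (0.5 CPM added to each value) for the 31 detected members, ordered by the value of replicate 1. Ratios run from 0.55 for Bcl2 to -0.42 for Bbc3 in replicate 1, and the widest gaps between replicates 2 and 3 are those of Bak1 and Bcl2.

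The strand setting of the counting is not given in the sources used here, so reads of overlapping genes cannot be told apart. Of the 38 members, 11 share exon bases with another annotated gene on either strand. Besides Diablo, the share was largest for Bak1 (25.5%, with Ggnbp1), Bad (20.5%, with Gpr137) and Bid (17.7%, with Bcl2l13), and for Bax it was 12.2%.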

How the data were processed

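PolyA RNA of 12 samples was sequenced. The deposited tables hold raw counts per Entrez gene ID. CASAVA, STAR and featureCounts were used with mm10, per the submitters' processing notes; versions, annotation, strand setting and treatment of multi-mapping reads: not given in the sources used here. As the labels' protocols say, lysates were reverse transcribed without RNA extraction and pre-amplified for 10 cycles; no molecular identifiers are mentioned, so counts are reads.

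The members, lists and tests were chosen with earlier results of these data known. Every member is named; of other pathway genes, those that fill a step without a member are named, and any beyond that were named after their values were seen. With 1 group left there was no test between groups. Symbols and positions came from RefSeq GRCm38.p6 (25275 of 27179 IDs; IDs without a symbol took 2.14% of counts and stayed in the totals). Merged exon and longest transcript lengths came from GENCODE M21, matched by Entrez ID or symbol (all 38 members and 98.4% of detected genes). Steps of several genes were summed. Values are means ± SD over 3 libraries. edgeR 4.0.16 (R 4.3.3) gave TMM and relative log expression factors and, as a common coefficient of variation in excess of counting error, 0.0907 over 11784 genes, checked on simulated data. The planned search of protein sequences was not made, and some pathway genes beyond the members are not reported here. Python 3.11.15, numpy 2.4.6, pandas 2.3.3, scipy 1.17.1 and matplotlib 3.10.9 were used.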

Additional observations from a re-analysis of the deposited data

How the results depend on the processing

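No paired analysis was possible because a single group, IL-1, was left. The count of 31 detected members was 31 at a minimum of 0.5 CPM, with either scaling and without any 1 library, and 29 at 2 CPM. Members highest in replicate 1 numbered 10 to 12. Length treatment moved most ratios, and for Mcl1 over Bcl2l1 it turned 1.27 into 0.711 by the longest transcript and 0.946 without length correction (added after seeing the data, as for the other pairs of genes). Without length correction, anti-death BCL2 genes were 0.444 times the pore formers in place of 0.180, 0.310 times the BH3-only genes in place of 0.242, and anti-death members 0.299 times the pro-death members in place of 0.191. By the longest transcript the last ratio was 0.174. Without Ripk1 and Birc5 it was 0.112, and without Bax, an alternative added after seeing the data, 0.283; without Bax, anti-death BCL2 genes were 1.52 times the other pore formers. The lowest step as a share of the highest was, without length correction, 2.41% in intrinsic apoptosis (Cycs in place of Apaf1, 0.936%), 3.03% in the death receptor pathway (1.78%) and 85.4% in the caspase-11 pathway (54.7%), and by the longest transcript 1.41% in the death receptor pathway and 80.5% in the caspase-11 pathway. Without replicate 2, Pycard replaced Casp1 as the lowest step of NLRP3 pyroptosis. Leaving out each library gave 0.177 to 0.186, 0.238 to 0.250 and 0.188 to 0.195 for the 3 ratios. The common coefficient of variation ran from 0.0677 without replicate 1 to 0.108 without replicate 3. With both scalings, each of the 38 means stayed within 1 SD; dropping a library from 3 can never shift a mean further than that. Depth limits the members with under 10 counts per library.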

Other observations

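Of 31 other genes of these pathways, listed with the members' roles, 21 were detected. Alternative routes were among them. Aifm1, which encodes a mitochondrial flavoprotein that can carry a caspase-independent death signal, was at 37.6 ± 1.22 CPM per kb (SD, n = 3), and Htra2, a mitochondrial protease that binds IAP proteins, at 25.0 ± 1.25. Gsdme, a relative of gasdermin D, had 505, 636 and 593 counts and 2.52 ± 0.231 CPM per kb, beside 2.37 ± 0.253 for Gsdmd. Their ranges overlapped by merged exons only, with Gsdme at 6.94 against 3.15 CPM per kb by the longest transcript and at 32.1 against 5.64 CPM without length correction. Ninj1, which ruptures the membrane of dying cells, was at 26.0 ± 2.45 and Nek7, a kinase that binds NLRP3, at 25.1 ± 2.16 CPM per kb, although Nlrp3 itself was not detected.

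The mitophagy receptor Bnip3l was at 41.3 ± 0.568 and the BCL2 partner Bag1 at 67.4 ± 5.94 CPM per kb. Il18, a cytokine that caspase-1 matures, had 186, 339 and 318 counts (10.8, 18.7 and 17.1 CPM) and was lowest in replicate 1. Tnfsf10, which encodes the death ligand TRAIL, lay just below the detection limit with 21, 11 and 17 counts. Bcl2l10 had 0, 0 and 2 counts, and Bcl2a1a, Bcl2a1b and Bcl2a1d, whose sequences are nearly the same, had none; reads discarded as ambiguous would leave the same picture.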
